A study of Mus musculus with 16 samples.

Results

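The Eph receptors, ephrins, semaphorins, plexins, neuropilins, Slits, Robos, netrins and Unc5 receptors are the classical guidance cues and receptors of axons, vessels and migrating cells. They were described here at the mRNA level in C2C12, a mouse myoblast line that fuses into myotubes in culture. The members were chosen by gene symbol, as the numbered genes of these 9 families, and 68 of the 31053 genes in the table matched. They comprise 14 Eph receptors, 8 ephrins, 20 semaphorins, 9 plexins, 2 neuropilins, 3 Slits, 4 Robos, 4 netrins and 4 Unc5 receptors. The samples were WT myoblasts, WT myotubes, Fam134bKO myoblasts and Fam134bKO myotubes, 4 of each and 16 in all. WT cells were unedited C2C12. In Fam134bKO cells the gene of the ER-phagy receptor FAM134B had been targeted with lentiviral CRISPR-Cas9 and guide RNAs, followed by drug selection. The sources do not say which of the listed guides the line carried or whether it came from a single clone. Both genotypes were left to differentiate spontaneously at confluence in growth medium, without a switch to low serum, and were grown as a monoculture without nerve or vessel cells. The study asked what loss of FAM134B does to myoblasts and to the myotubes they form, and the 5 comparisons below follow from that design.

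Guidance proteins act between neighbouring cells or over short distances, and most work by collapsing or steering the actin cytoskeleton of the cell that carries the receptor. Ephrins are held in the membrane and bind Eph receptor tyrosine kinases on the next cell. Class 3 semaphorins are secreted and bind neuropilins paired with plexins, whereas most other semaphorins are membrane-bound and contact plexins directly. Slits are secreted ligands of Robo receptors, and netrins are laminin-like ligands of Dcc, neogenin and the Unc5 receptors. In muscle, members of these families are known for placing myoblasts and satellite cells during migration, for fusion, and for contact with motor axons and vessels.

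Levels below are normalized counts, which are read counts per gene divided by a factor for each sample, and they were deposited as log2(normalized count + 1). They are not scaled to gene length, so levels are compared between samples and not between genes. Each sample held 1484750 to 3287461 reads on genes, the lowest totals being those of Fam134bKO myotubes replicates 4 and 2, and 3 reads corresponded to a normalized count of 2.490 to 5.995. Fam134b itself was listed at 150 to 251 in WT myoblasts and 146 to 287 in WT myotubes, against 23.4 to 35.6 and 28.0 to 56.9 in the respective Fam134bKO groups. The labelled cell type was checked with 15 skeletal muscle genes. Their summed normalized count ranged from 2590 to 3874 for WT myoblasts and from 29155 to 44803 for WT myotubes. For Fam134bKO it ranged from 246.5 to 315.0 at the myoblast stage and from 12576 to 17053 at the myotube stage. Myog, the myogenin gene, held no read in any Fam134bKO myoblast sample but was at 92.1 to 149 in WT myoblasts. The 2 myoblast groups therefore differed in muscle gene expression, and the part of this in the guidance gene values was not tested. Of 8 endothelial markers 5 or 6 held no read in each group, and their summed level stayed at or below 3.45 in every sample. Of 10 neuronal and glial markers, Rbfox3 and Sox10 held no read in any group, and the list summed to 69.1 to 98.05 over the WT samples and 128 to 276 over the Fam134bKO samples. Only Map2 and Tubb3 of it were tested, and 1 of the 2, Map2, was called higher in Fam134bKO at both stages. The part of these markers in the results was not tested. Fibroblast markers, which myoblast lines also express, summed to 3627 to 6892, 13855 to 25902, 6100 to 19430 and 20038 to 42827 in the groups in the order given, so they moved with stage and with genotype, and their part in the results was not tested.

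A gene was tested when its normalized count reached 10 in at least 4 of the 16 samples, and it was called at a limma adjusted p under 0.05 over all 10767 genes tested. Of the 68 guidance genes, 45 passed and 23 did not. Epha3 and Sema4d reached 10 in the WT myotubes only, so these 2 genes could pass the filter only if their groups differed, and their comparisons with WT myotubes are given as values with no p. Without them 43 genes remain, of which 15 were called higher and 0 lower in WT differentiation and 7 higher and 7 lower in Fam134bKO against WT myotubes. Robo1, Robo2 and Ntn4 reached 10 in WT samples only, Sema3f in Fam134bKO samples only, and Ntn5 and Sema3c in myotubes only. These genes passed the filter through the side where they are high. Their p-values between those sides are therefore a description and give no support of their own. Sema6d reached 10 in Fam134bKO myoblasts and WT myotubes only. Its p-values between Fam134bKO myoblasts and either WT myoblasts or Fam134bKO myotubes are likewise a description. The counts that follow cover the 45 genes that passed. They are a description of these genes, and fold changes are differences of log2(normalized count + 1), which understate the change of genes with few reads.

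The guidance genes moved mostly upward with differentiation. In WT myotubes 17 of 45 were called higher than in WT myoblasts and 0 lower, while 13.8% of all genes tested were called higher and 9.16% lower. The median log2 fold change of the 45 was 1.01, against -0.01 over all genes. The 17 became 10 without WT myoblasts replicate 4 and 11 without WT myotubes replicate 1 or replicate 4. Of the genes not called, 25 also had a positive estimate, and the 3 negative estimates, those of Epha4, Efna4 and Efna5, had unadjusted p-values of 0.142, 0.285 and 0.180. In Fam134bKO myotubes against Fam134bKO myoblasts 21 were called higher and 1 lower, beside 17.3% and 16.1% of all genes (33.4% in either direction), and the median was 0.86 against -0.03. In WT, 20 genes had 4 myotube values that did not overlap the 4 myoblast values, 19 of them higher, where 28.0% of all genes did so. In Fam134bKO the number was 17, of which 16 were higher, against 27.4%. The genes called higher in both genotypes numbered 11, where 9.16% of all genes tested were, a count taken from the calls and not a test of likeness between the genotypes. They were Epha7, Ephb3, Ntn1, Ntn5, Plxna1, Plxna2, Plxna3, Plxnb2, Sema3d, Sema4c and Sema6a.

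Between the genotypes the calls ran both ways. In myoblasts 6 guidance genes were higher and 10 lower in Fam134bKO than in WT, with 7.26% of all genes called higher and 8.50% lower. In myotubes 7 were higher and 9 lower, beside 9.74% and 13.7%. The medians of the 45 were -0.20 and 0.06, against -0.01 and -0.07 over all genes. Non-overlapping groups were seen for 14 genes at each stage, where 26.8% of all genes in myoblasts and 19.4% in myotubes did not overlap. In myotubes 7 of the 14 were higher, beside 8.52% of all genes, and in myoblasts 6 were, beside 12.8%. A test of the difference between the 2 differentiation responses, the interaction of genotype and stage, called 2 of the 45, beside 3.45% of all genes. These comparisons share sample groups: each myoblast or myotube group enters a comparison by stage and a comparison by genotype, so a low value in Fam134bKO myoblasts bears on both. At an adjusted p under 0.05, 6 genes were lower in Fam134bKO at both stages (Epha3, Robo1, Robo2, Sema6a, Sema7a, Plxnb1), beside 5.17% of all genes tested. The genes higher at both were 3 (Epha7, Sema3f, Slit2), beside 3.48%, and Sema5a was lower in myoblasts and higher in myotubes, beside 0.102%. Epha3, Robo1, Robo2 and Sema3f passed the filter only through samples of the genotype where they are high. Their place in these counts is a description and no support.

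**Figure D1:**
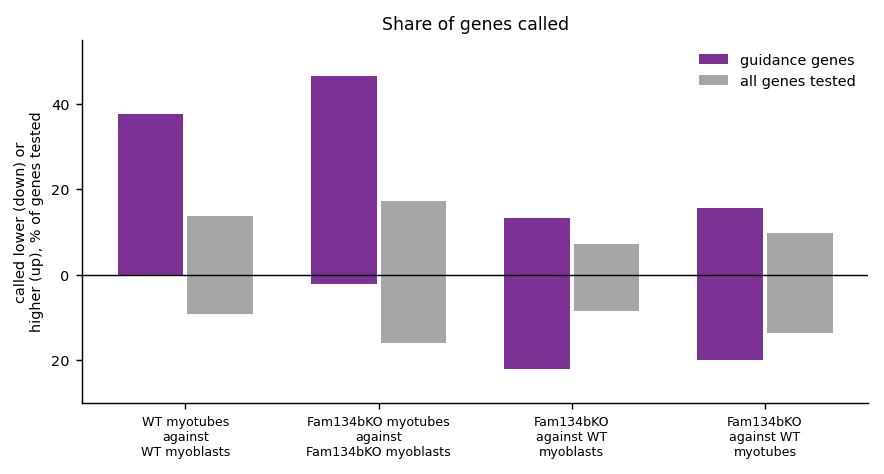
Share of genes tested that were called higher (upward bars) or lower (downward bars) at an adjusted p under 0.05, in percent, for the 45 guidance genes that passed the filter (purple) and all 10767 genes tested (grey), in the 4 pairwise comparisons. In both differentiation comparisons the guidance genes lie almost wholly above the line, at 37.8% and 46.7% called higher, whereas the bars of the genotype comparisons extend both ways.

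**Figure D2:**
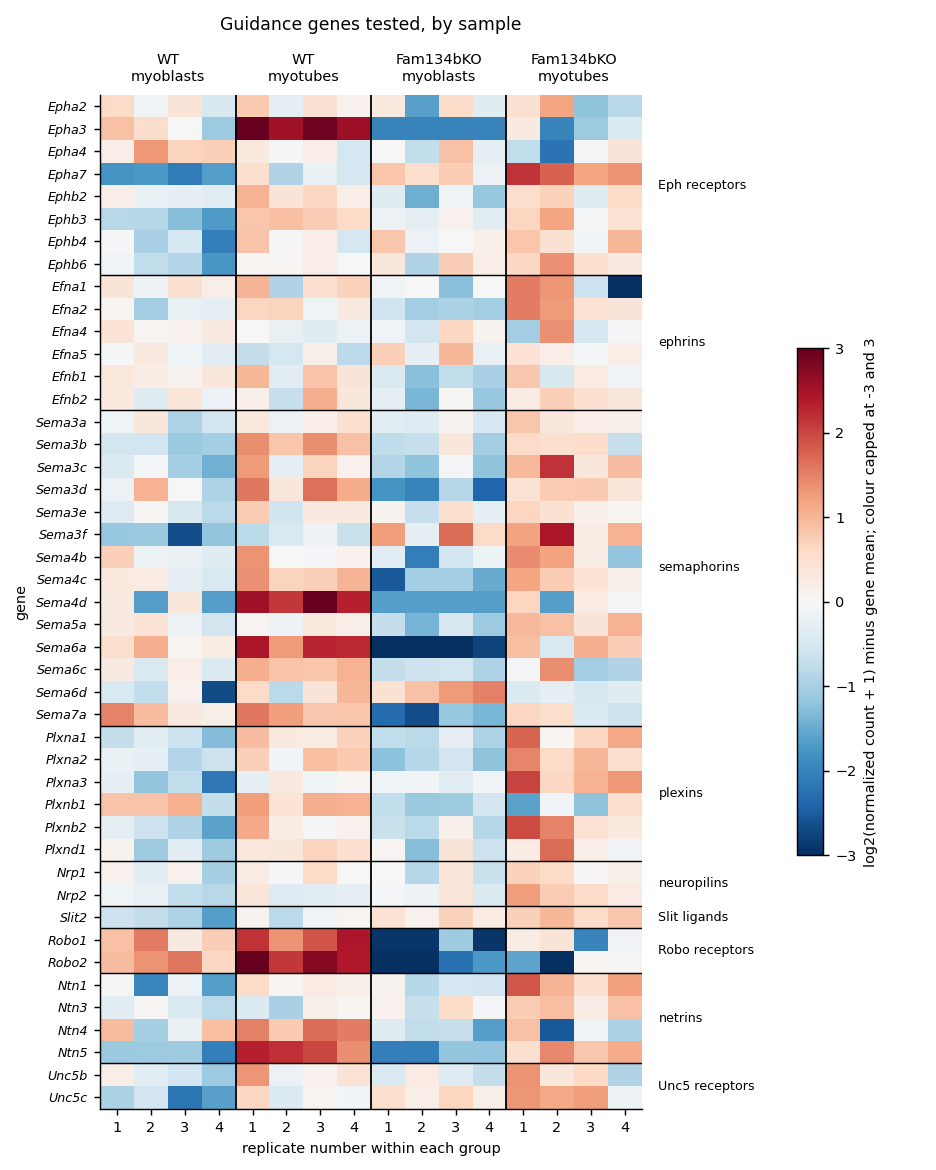
Each row is a guidance gene that passed the filter, grouped by family, and each column a sample, with the replicate number below. Colour gives log2(normalized count + 1) minus the mean of the gene over the 16 samples, red for higher and blue for lower. Robo1, Robo2, Epha3, Sema6a and Sema7a are blue in the Fam134bKO myoblasts, and the plexin rows are mostly red in the Fam134bKO myotubes.

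Promoter sequence is shown for the 3 receptors with few or no reads in Fam134bKO myoblasts (Epha3, Robo1, Robo2) and for 3 members with other patterns (Epha7, Sema5a and Sema7a). The E-box, written CANNTG, is the motif that muscle regulatory factors are known to bind. Each is the 300 bases from 250 before to 50 after an annotated start (RefSeq, GRCm38.p6), read on the strand of the gene, with every CANNTG in capitals. The motif reads the same on both strands. Where a gene had several starts, that nearest the start of its GENCODE gene model was taken. For Robo1 the table lists 1 start, which lies inside the gene model and not at its outer end.
Epha3, chr16:63864126-63864425, minus strand: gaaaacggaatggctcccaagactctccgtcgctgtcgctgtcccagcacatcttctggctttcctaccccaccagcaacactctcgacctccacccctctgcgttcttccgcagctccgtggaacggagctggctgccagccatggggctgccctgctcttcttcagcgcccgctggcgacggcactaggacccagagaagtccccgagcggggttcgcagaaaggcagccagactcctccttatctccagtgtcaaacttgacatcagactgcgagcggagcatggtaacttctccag
Robo1, chr16:72662899-72663198, plus strand: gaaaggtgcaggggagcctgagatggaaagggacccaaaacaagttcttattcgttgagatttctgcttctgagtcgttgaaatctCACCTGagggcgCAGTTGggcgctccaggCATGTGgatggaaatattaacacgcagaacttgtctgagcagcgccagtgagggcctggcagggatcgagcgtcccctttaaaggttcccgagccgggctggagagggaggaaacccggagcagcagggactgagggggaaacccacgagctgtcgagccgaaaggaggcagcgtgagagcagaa
Robo2, chr16:74411776-74412075, minus strand: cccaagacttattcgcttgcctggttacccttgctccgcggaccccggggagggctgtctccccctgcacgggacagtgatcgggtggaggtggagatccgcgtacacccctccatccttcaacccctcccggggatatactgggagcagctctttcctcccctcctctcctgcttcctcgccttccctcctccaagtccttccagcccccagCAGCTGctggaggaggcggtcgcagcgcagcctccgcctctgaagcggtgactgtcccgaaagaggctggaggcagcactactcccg
Epha7, chr4:28812881-28813180, plus strand: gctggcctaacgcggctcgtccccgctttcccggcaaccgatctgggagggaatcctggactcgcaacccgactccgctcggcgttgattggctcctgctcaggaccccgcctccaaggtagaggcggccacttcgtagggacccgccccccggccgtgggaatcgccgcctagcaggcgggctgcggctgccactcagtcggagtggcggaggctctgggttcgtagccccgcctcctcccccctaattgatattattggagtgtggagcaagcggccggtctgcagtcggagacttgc
Sema5a, chr15:32244563-32244862, plus strand: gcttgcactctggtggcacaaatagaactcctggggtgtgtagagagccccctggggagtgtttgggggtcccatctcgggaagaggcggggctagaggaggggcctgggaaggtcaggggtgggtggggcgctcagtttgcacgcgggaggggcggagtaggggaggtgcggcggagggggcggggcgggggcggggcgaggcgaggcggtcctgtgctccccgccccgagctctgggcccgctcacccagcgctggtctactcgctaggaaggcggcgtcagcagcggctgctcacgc
Sema7a, chr9:57939862-57940161, plus strand: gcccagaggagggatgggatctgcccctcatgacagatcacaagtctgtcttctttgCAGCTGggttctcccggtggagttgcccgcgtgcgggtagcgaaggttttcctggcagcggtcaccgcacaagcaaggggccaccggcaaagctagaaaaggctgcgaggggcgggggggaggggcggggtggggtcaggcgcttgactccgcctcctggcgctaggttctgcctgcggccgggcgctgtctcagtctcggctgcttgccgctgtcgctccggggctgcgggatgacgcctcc
Robo1 held 3 matches, Robo2 and Sema7a 1 each and the other promoters 0. The matches of Robo2 and Sema7a read CAGCTG, a form that is included in CANNTG. Of the 68 genes 59 had an entry, with 75 starts, and 50.7% of these promoters held a CANNTG, against 72.3% of all 32851 promoters in the table. CAGCTG stood in 12 of the 75 and in 16.3% of all promoters. A match is only a run of letters in this window and does not show a bound site.

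Among the Eph receptors, which are receptor tyrosine kinases for membrane-bound ephrins, 8 of 14 were tested. In WT, Epha7, Ephb3 and Ephb6 rose with differentiation, and in Fam134bKO cells Epha7, Ephb2 and Ephb3 did. With Epha3 counted in WT, these are 50% in WT and 37.5% in Fam134bKO, beside 13.8% and 17.3% of all genes. Epha3, a receptor of A-type ephrins, was at 6.46, 4.82, 3.002 and 0.89 in WT myoblasts 1 to 4 and at 31.1, 22.5, 29.7 and 22.8 in WT myotubes. It held no read in any of the 4 Fam134bKO myoblast samples and was at 3.87, 0, 0.90 and 1.998 in Fam134bKO myotubes. The 4 WT myotube samples thus stood above all 12 others, and the Fam134bKO samples lay near or below the level of 3 reads. The log2 fold change of WT myotubes was 2.68 ± 0.56 (SE) over WT myoblasts, and that of Fam134bKO over WT myotubes was -3.57 ± 0.56. In myoblasts the mean of WT was at least 1.48-fold that of Fam134bKO, taking 3 reads per library for the empty group, and the adjusted p of 0.0115 became 0.0538 without WT myoblasts replicate 1, 0.053 with a pseudocount of 5 and 0.175 after quantile normalization.

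Epha7, another A-type receptor, followed the opposite order between genotypes. Its values were 6.46, 6.75, 5.00 and 7.13 in WT myoblasts and 34.5, 12.6, 21.4 and 16.8 in WT myotubes. In Fam134bKO they were 44.6, 35.7, 42.5 and 21.7 in myoblasts and 114, 86.1, 56.7 and 63.9 in myotubes. The groups did not overlap in any of the 4 comparisons. Myoblasts of Fam134bKO exceeded those of WT by a log2 fold change of 2.30 ± 0.33 (adjusted p = 2.09e-05), and myotubes by 1.90 ± 0.33 (adjusted p = 2.47e-04). With differentiation it rose by 1.52 ± 0.33 in WT and by 1.13 ± 0.33 in Fam134bKO, the latter with an adjusted p of 0.0111 that became 0.0536 without Fam134bKO myoblasts replicate 4.

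The B-type receptors that were tested all had positive differentiation estimates in both genotypes. Ephb3 was at 16.9 to 31.4 in WT myoblasts and 86.2 to 108 in WT myotubes, groups far apart, with a log2 fold change of 1.94 ± 0.25 (adjusted p = 1.05e-05). In Fam134bKO it was at 45.0 to 62.5 in myoblasts and 54.9 to 131 in myotubes. Its Fam134bKO myoblasts were above those of WT by 1.02 ± 0.25 (adjusted p = 0.00709). The rise within Fam134bKO, 0.71 ± 0.25 (adjusted p = 0.0361), overlapped between stages and lost its call without any of Fam134bKO myoblasts replicates 1, 2 or 4 or Fam134bKO myotubes replicates 1 or 2 (0.49 to 0.71, adjusted p 0.0695 to 0.125). That rise was 0.44 (adjusted p = 0.23) without both Fam134bKO myotubes replicates 2 and 4 and 0.49 (adjusted p = 0.145) with sample weights. Ephb2 rose in Fam134bKO from a mean of 22.3 to 48.1 (1.12 ± 0.31, adjusted p = 0.00846), a call lost with sample weights (0.71, adjusted p = 0.0913) and without Fam134bKO myotubes replicates 2 and 4 (0.85, adjusted p = 0.0795). Ephb6, which lacks kinase activity, stood at 21.4 to 70.1 in WT myoblasts and 75.3 to 84.6 in WT myotubes, and its adjusted p of 0.0485 passed 0.05 when any of 11 samples was left out (0.0529 to 0.197). Epha2, Epha4 and Ephb4 were not called in any comparison. Epha5 and Epha6, receptors best known from the nervous system, held no read in any sample, and Epha1, Epha8, Epha10 and Ephb1 did not pass the filter. The exons of Ephb4 share positions with Zan on the other strand, which is at 1.72 or less in group mean.

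The ephrins, the ligands of these receptors, showed 0 limma calls in WT with differentiation, beside 23.0% of all genes, and 1 passed an unadjusted p of 0.05. Of 6 tested, 3 rose in Fam134bKO, namely Efna2, Efnb1 and Efnb2, which is 50% beside 17.3% of all genes. Efna2 went from 29.8, 21.6, 23.4 and 21.7 in Fam134bKO myoblasts to 135.5, 112, 62.1 and 60.0 in Fam134bKO myotubes, without overlap (1.82 ± 0.29, adjusted p = 6.96e-05). In WT it was at 22.2 to 48.0 in myoblasts and 41.8 to 73.8 in myotubes. Efnb2, the transmembrane ligand of Ephb4 in vessels, rose in Fam134bKO from 23.2 to 62.5 up to 71.6 to 102 (1.12 ± 0.33, adjusted p = 0.0128), and without both shallow Fam134bKO myotube samples the adjusted p was 0.0579. Efnb1 was lower in Fam134bKO myoblasts, at 14.9 to 27.1, than in WT myoblasts, at 40.03 to 47.2 (-1.10 ± 0.31, adjusted p = 0.0155, or 0.0504 without Fam134bKO myoblasts replicate 2). It then rose to 26.3 to 64.9 in Fam134bKO myotubes (0.96 ± 0.31, adjusted p = 0.0194), a call lost without Fam134bKO myoblasts replicate 2 or Fam134bKO myotubes replicate 1 (0.83 and 0.73, adjusted p 0.0567 and 0.0795). Between the genotypes in myotubes 0 ephrins were called, beside 23.4% of all genes, and 1 passed an unadjusted p of 0.05. Efna1, Efna4 and Efna5 were called nowhere, and Efna3 and Efnb3 stayed below the filter with 59 and 51 reads over all samples.

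**Figure D3:**
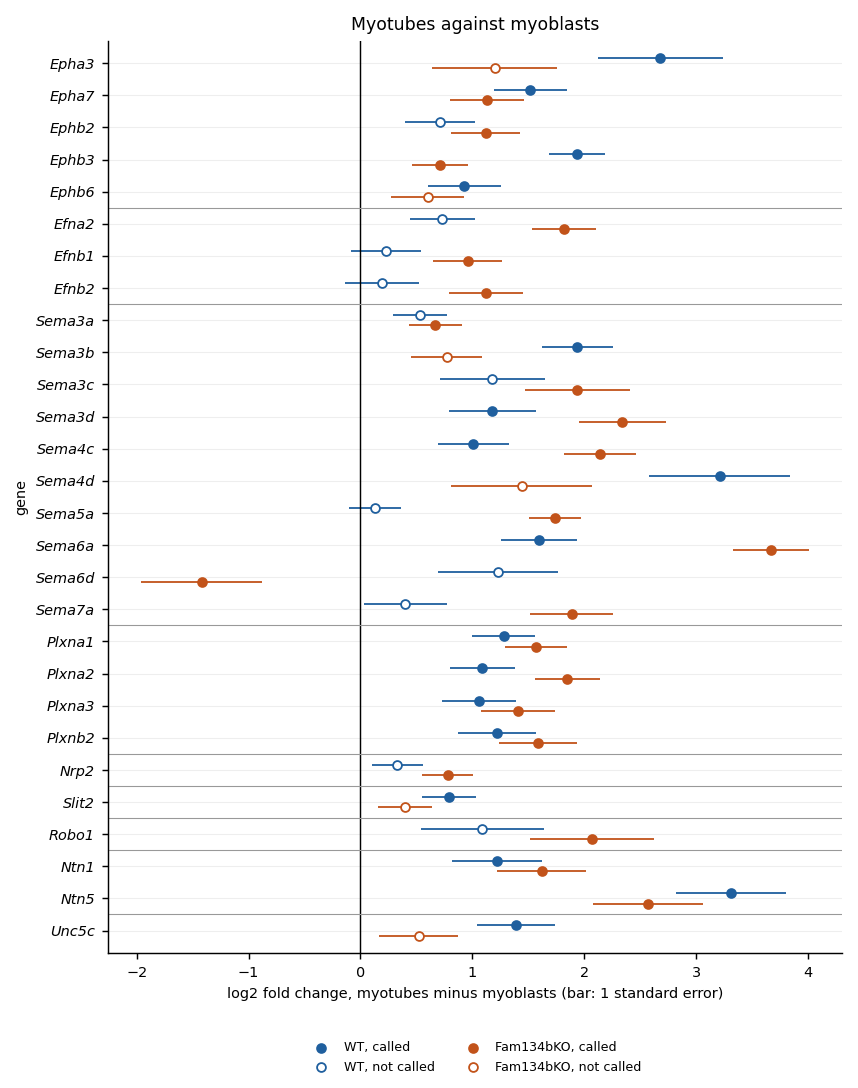
Log2 fold change of myotubes over myoblasts (points, bars of 1 standard error) in WT (blue) and Fam134bKO (orange) for the guidance genes called in either, 4 samples per group. Filled points passed an adjusted p of 0.05 and open points did not. Sema6d in Fam134bKO is the single filled point left of 0, and Sema6a in Fam134bKO lies farthest right at 3.67.

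Of the semaphorins, the largest family here, 14 of 20 were tested. With differentiation 5 rose in WT (35.7%, beside 13.8% of all genes). In Fam134bKO 7 rose and 1 fell (50% and 7.14%, beside 17.3% and 16.1%). Against WT, 2 were higher and 5 lower in Fam134bKO myoblasts (14.3% and 35.7%, beside 7.26% and 8.50%). In Fam134bKO myotubes 2 were higher and 4 lower (14.3% and 28.6%, beside 9.74% and 13.7%). Sema4d, which passed the filter through WT myotubes alone, is among the 5 that rose in WT and the 4 lower in Fam134bKO myotubes.

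Of the secreted class 3 semaphorins, Sema3b rose in WT from 19.01 to 28.6 up to 76.5 to 112.5 (1.94 ± 0.32, adjusted p = 1.57e-04). In Fam134bKO it was at 20.02 to 53.8 in myoblasts and at 63.9, 59.8, 62.1 and 26.0 in myotubes. The lower value of Fam134bKO myotubes (-0.89 ± 0.32, adjusted p = 0.0458) lost its call when any of 9 samples was left out and fell to -0.59 without Fam134bKO myotubes replicate 4. Without both Fam134bKO myotubes replicates 2 and 4 the estimate was -0.56 (adjusted p = 0.235). Sema3d was at 6.999, 5.81, 13.9 and 4.17 in Fam134bKO myoblasts and at 23.1, 54.97, 26.0 and 13.4 in WT myoblasts (-1.74 ± 0.39, adjusted p = 0.00317), the highest of the first just above the lowest of the second. It rose to 33.97 to 45.9 in Fam134bKO myotubes (2.34 ± 0.39, adjusted p = 9.89e-05). In WT myotubes it was at 33.3 to 84.6, a rise of 1.18 ± 0.39 (adjusted p = 0.034) that was not called without any of 6 of the 8 samples compared (0.0659 to 0.14). Sema3c, a ligand of both neuropilins, rose in Fam134bKO from 3.32 to 8.68 up to 11.7 to 43.8 (1.94 ± 0.47, adjusted p = 0.00313). Sema3a, the founding collapse factor of the class and a ligand of Nrp1, rose in Fam134bKO from a mean of 123.5 to 198 (0.67 ± 0.24, adjusted p = 0.0349), a call lost without Fam134bKO myoblasts replicate 1, 2 or 4 or Fam134bKO myotubes replicate 1 (0.0703 to 0.122).

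Sema3f, a ligand of Nrp2, was close to the detection limit in WT. It was at 1.85, 1.93, 0 and 1.78 in WT myoblasts and 2.59, 3.598, 4.65 and 2.97 in WT myotubes, against 14.0, 4.15, 19.1 and 8.34 in Fam134bKO myoblasts and 13.6, 33.6, 6.30 and 11.99 in Fam134bKO myotubes. At both stages the Fam134bKO samples lay above those of WT, by a log2 fold change of 2.32 ± 0.54 in myoblasts (adjusted p = 0.00419) and 1.75 ± 0.54 in myotubes (adjusted p = 0.0229). The latter was 1.34 (adjusted p = 0.067) without Fam134bKO myotubes replicate 2 and 1.70 (adjusted p = 0.0547) without WT myotubes replicate 4. Without Fam134bKO myotubes replicates 2 and 4 it was 1.23 (adjusted p = 0.15), and with sample weights 1.43 (adjusted p = 0.0806). Sema3e was not called in any comparison, and Sema3g did not pass the filter.

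Among the membrane-bound semaphorins, Sema6a, a transmembrane ligand of class A plexins, was called in all 4 pairwise comparisons. It was at 48.9, 74.3, 36.03 and 40.1 in WT myoblasts, 192, 85.5, 172 and 165.5 in WT myotubes, 2.62, 2.49, 3.47 and 4.17 in Fam134bKO myoblasts and 64.9, 24.8, 74.7 and 58.0 in Fam134bKO myotubes. The Fam134bKO myoblasts rested on 3 to 5 reads per sample and stood below all other samples, while the Fam134bKO myotubes overlapped the WT myoblasts. Differentiation raised it by a log2 fold change of 1.60 ± 0.34 in WT (adjusted p = 0.00174) and 3.67 ± 0.34 in Fam134bKO (adjusted p = 3.79e-08). The Fam134bKO value was lower by -3.56 ± 0.34 in myoblasts (adjusted p = 7.24e-08) and by -1.50 ± 0.34 in myotubes (adjusted p = 0.00279). The difference between the 2 responses was 2.07 ± 0.48 (95% interval 1.07 to 3.06, adjusted p = 0.0164), and 1.28 with an adjusted p of 0.0964 at a pseudocount of 5.

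Sema5a, a transmembrane semaphorin with thrombospondin repeats, was the other gene called by the interaction. Its values were 185.5, 205, 136 and 105 in WT myoblasts and 165, 139, 194 and 175 in WT myotubes, groups that overlapped (0.13 ± 0.23, adjusted p = 0.734). In Fam134bKO they were 94.5, 58.1, 111 and 71.7 in myoblasts and 306, 287.5, 201.5 and 322 in myotubes, without overlap (1.74 ± 0.23, adjusted p = 5.71e-06). The interaction was 1.61 ± 0.32 (95% interval 0.94 to 2.29, adjusted p = 0.0056), and it stayed called in every alternative at an adjusted p under 0.05. In myoblasts Fam134bKO was lower by -0.90 ± 0.23 (adjusted p = 0.00834). The higher value in Fam134bKO myotubes, 0.71 ± 0.23 (adjusted p = 0.0285), was not called without WT myotubes replicate 2 or 4 or Fam134bKO myotubes replicate 1 or 4 (0.63 to 0.74, adjusted p 0.0527 to 0.0759). That estimate was 0.57 (adjusted p = 0.159) without Fam134bKO myotubes replicates 2 and 4 and 0.54 (adjusted p = 0.125) with sample weights.

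Sema7a, which is held by a lipid anchor and binds beta1 integrins, was at 134, 90.7, 57.0 and 53.5 in WT myoblasts, 143, 114, 82.7 and 84.2 in WT myotubes, 8.75, 6.64, 20.8 and 17.5 in Fam134bKO myoblasts and 72.6, 68.6, 35.1 and 30.0 in Fam134bKO myotubes. Fam134bKO myoblasts were below all WT samples (-2.59 ± 0.37, adjusted p = 2.31e-05). It rose with differentiation in Fam134bKO by 1.89 ± 0.37 (adjusted p = 4.83e-04), and the estimate in WT was 0.40 ± 0.37. The interaction of 1.49 was not called. The lower level in Fam134bKO myotubes, -1.09 ± 0.37 (adjusted p = 0.0363), lost its call without WT myotubes replicate 1 or 2 or Fam134bKO myotubes replicate 3 or 4 (-0.87 to -1.05, adjusted p 0.0748 to 0.106).

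Sema4c, a ligand of plexin B2, was at 48.9, 47.3, 32.0 and 28.5 in WT myoblasts against 6.12, 19.1, 19.1 and 13.4 in Fam134bKO myoblasts (-1.46 ± 0.32, adjusted p = 0.00279), with no overlap. It rose in Fam134bKO to 44.0 to 92.0 (2.14 ± 0.32, adjusted p = 3.07e-05) and in WT to 63.9 to 105 (1.01 ± 0.32, adjusted p = 0.0294). The call in WT was lost without WT myoblasts replicate 3 or 4 or WT myotubes replicate 1 or 4 (0.86 to 0.98, adjusted p 0.0698 to 0.106). Sema4d, the ligand of plexin B1 known as CD100 in immune cells, was at 2.77, 0, 3.002 and 0 in WT myoblasts and 17.3, 12.6, 27.0 and 14.9 in WT myotubes (3.21 ± 0.63). It held no read in the Fam134bKO myoblasts and was at 3.87, 0, 2.70 and 1.998 in Fam134bKO myotubes, below every WT myotube sample (-2.75 ± 0.63).

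Sema6d was the only guidance gene called lower with differentiation, in Fam134bKO, from 7.87, 10.8, 14.8 and 17.5 to 3.87, 4.38, 3.599 and 3.996 (-1.42 ± 0.54). Its adjusted p of 0.0498 rose above 0.05 when any of 13 of the 16 samples was left out (0.053 to 0.136). In WT it was at 0 to 6.004 in myoblasts and 2.70 to 11.9 in myotubes. The excess in Fam134bKO myoblasts over WT myoblasts was 1.97 ± 0.54 (adjusted p = 0.0146), but 1.39 (adjusted p = 0.0677) without WT myoblasts replicate 4, the sample at 0, and 1.81 (adjusted p = 0.0572) without Fam134bKO myoblasts replicate 4. In both comparisons Sema6d passed the filter through the Fam134bKO myoblasts, where it is high, so these p-values are a description. Sema4b and Sema6c were called nowhere, and Sema4a, Sema4f, Sema4g, Sema5b and Sema6b did not pass the filter.

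**Figure D4:**
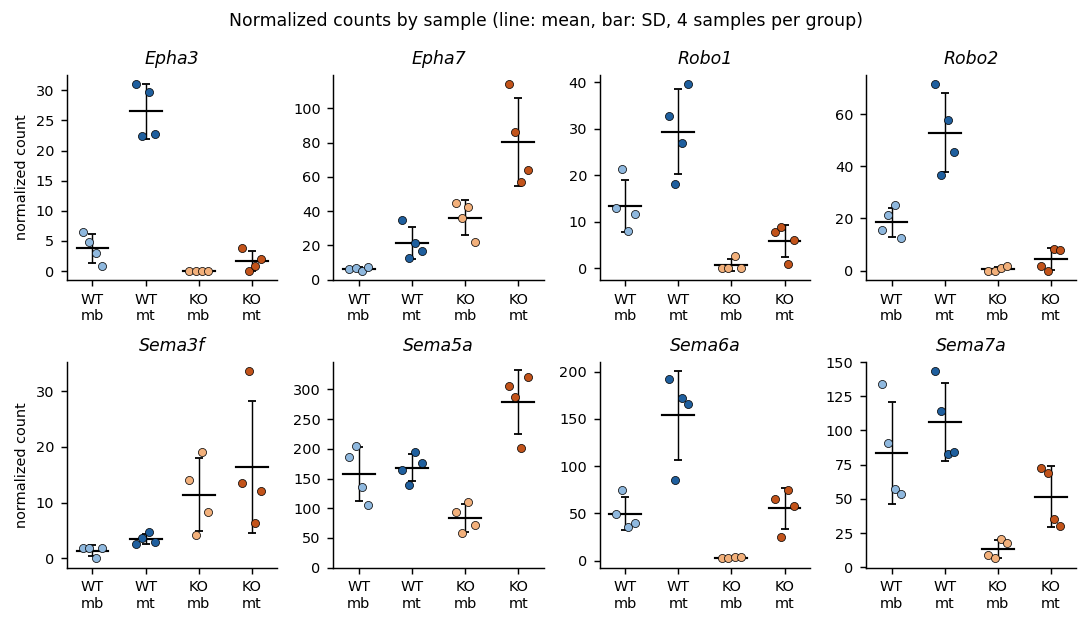
Normalized counts of 8 guidance genes in every sample, on a linear axis of its own for each gene, in myoblasts (mb) and myotubes (mt) of WT and Fam134bKO (KO). Lines are means and bars SD of 4 samples. Epha3, Robo1, Robo2 and Sema6a lie near 0 in Fam134bKO myoblasts, Epha7 and Sema3f are higher in Fam134bKO at both stages, and Sema5a is level in WT and rises in Fam134bKO.

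Of the plexins, the receptors of semaphorins, 6 of 9 were tested. Plxna1, Plxna2, Plxna3 and Plxnb2 were called higher in both genotypes, as were 9.16% of all genes, and Plxnb1 and Plxnd1 in neither. Plxna1 was at 126, 163, 132 and 82.9 in WT myoblasts and 393, 255.5, 241 and 336 in WT myotubes (1.28 ± 0.28, adjusted p = 0.0025). In Fam134bKO it was at 123, 119, 175 and 108.5 in myoblasts and 703, 214.5, 321 and 462 in myotubes (1.57 ± 0.28, adjusted p = 2.09e-04). The stages did not overlap in either genotype. Plxna2 rose by 1.09 ± 0.29 in WT (adjusted p = 0.00954) and 1.85 ± 0.29 in Fam134bKO (adjusted p = 4.59e-05). Plxnb2, the receptor of Sema4c, lay between 84.7 and 212 in WT myoblasts and between 256.5 and 571.5 in WT myotubes. Its Fam134bKO values spanned 143.5 to 291 at the myoblast and 322 to 1024 at the myotube stage. Its rises were 1.22 ± 0.35 and 1.59 ± 0.35 (adjusted p = 0.0145 and 0.00137), the first 0.97 and not called without WT myoblasts replicate 4 or WT myotubes replicate 1 (adjusted p 0.0684 and 0.0716).

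By genotype, 1 of the 6 plexins tested was called in myoblasts and 2 in myotubes. These are 16.7% and 33.3%, beside 15.8% and 23.4% of all genes. Plxna3 was higher in Fam134bKO myotubes, at 196, 73.0, 99.0 and 118, than in WT myotubes, at 38.0, 58.5, 42.8 and 49.5 (1.27 ± 0.33, adjusted p = 0.00862). Its rise with differentiation was 1.41 ± 0.33 in Fam134bKO (adjusted p = 0.00267) and 1.06 ± 0.33 in WT (adjusted p = 0.026), the latter lost without WT myoblasts replicate 2 or 4 or WT myotubes replicate 2 or 4 (0.70 to 1.03, adjusted p 0.0565 to 0.121). Plxnb1, the receptor of Sema4d, was lower in Fam134bKO at both stages. It was at 25.8, 26.0, 30.0 and 8.02 in WT myoblasts and 7.87, 5.81, 6.07 and 9.18 in Fam134bKO myoblasts (-1.39 ± 0.45, adjusted p = 0.0401), and at 34.5, 18.9, 30.7 and 29.7 in WT myotubes and 3.87, 13.1, 5.40 and 19.98 in Fam134bKO myotubes (-1.55 ± 0.45, adjusted p = 0.0164). In each case a single pair of samples overlapped. The myoblast call was lost when any of 9 samples was left out (0.0512 to 0.134), and the myotube call without Fam134bKO myotubes replicate 1 (-1.22, adjusted p = 0.0571). Exons of Plxnb1 share positions with Gm7628 on the other strand, a gene with group means of 1.26 to 5.57. Plxnd1, the receptor of Sema3e in vessels, was at 11.6 to 27.7 and 31.9 to 40.9 in WT myoblasts and myotubes and at 9.96 to 33.8 and 23.98 to 83.2 in Fam134bKO, and was not called (1.05 ± 0.40 with differentiation in WT, adjusted p = 0.0636).

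The neuropilins, co-receptors of class 3 semaphorins, were called for Nrp2 only. Nrp1 lay between 89.1 and 196.5 in WT myoblasts and between 174.5 and 268 in WT myotubes. In Fam134bKO it lay between 98.8 and 232 and between 184 and 291, and it passed no test. The 95% interval of its log2 fold change between genotypes was -0.58 to 0.55 in myoblasts and -0.37 to 0.75 in myotubes. Nrp2 was at 104 to 170 and 143 to 241 in WT and at 138.5 to 240 and 220 to 447 in Fam134bKO. It rose in Fam134bKO by 0.78 ± 0.23 (adjusted p = 0.0141) and was higher there than in WT myotubes by 0.86 ± 0.23 (adjusted p = 0.0108), while the rise in WT was 0.33 ± 0.23 (adjusted p = 0.334) and the interaction was not called. The rise in Fam134bKO was not called without Fam134bKO myoblasts replicate 4 (0.66, adjusted p = 0.0578) or Fam134bKO myotubes replicate 1 (0.60, adjusted p = 0.0622). Nrp2, the receptor of Sema3f, was thus detected in each of the 16 samples.

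Of the Slit and Robo genes, Slit2, Robo1 and Robo2 were tested. Slit2, a secreted ligand, was at 48.0, 45.3, 39.0 and 23.2 in WT myoblasts, 80.3, 42.3, 67.8 and 79.3 in WT myotubes, 101, 82.2, 121.5 and 88.4 in Fam134bKO myoblasts and 122, 149, 112 and 134 in Fam134bKO myotubes. Fam134bKO was above WT in all samples of each stage, by 1.35 ± 0.24 in myoblasts (adjusted p = 3.75e-04) and 0.96 ± 0.24 in myotubes (adjusted p = 0.0068, or 0.0526 without both shallow Fam134bKO myotube samples). Its rise in WT, 0.79 ± 0.24 (adjusted p = 0.0248), was lost without WT myoblasts replicate 4 or WT myotubes replicate 1, 3 or 4 (0.56 to 0.77, adjusted p 0.0562 to 0.114). Slit1 held no read in either myoblast group, 3, 5, 6 and 2 reads in WT myotubes and 2 reads in 1 of the Fam134bKO myotube samples, and Slit3 held 1 read over all samples. Both were below the filter and were not tested.

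Robo1, a receptor of Slit2, was at 12.9, 21.2, 8.01 and 11.6 in WT myoblasts and 32.8, 17.99, 27.0 and 39.6 in WT myotubes. In Fam134bKO myoblasts it held no read in replicates 1, 2 and 4 and 3 reads in replicate 3, and in Fam134bKO myotubes it was at 7.75, 8.76, 0.90 and 5.995. Fam134bKO lay below WT in all samples of each stage. The log2 fold change was -3.31 ± 0.55 in myoblasts (adjusted p = 1.36e-04) and -2.33 ± 0.55 in myotubes (adjusted p = 0.00379). By reads, WT myoblasts held 21.0 times as much as Fam134bKO myoblasts (95% interval 6.85 to 105, counting error only). Robo1 rose with differentiation in Fam134bKO by 2.07 ± 0.55 (adjusted p = 0.00601, or 0.059 without both shallow samples), by reads 8.47-fold with an interval of 2.47 to 44.9. In WT the estimate was 1.09 ± 0.55 (adjusted p = 0.158).

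Robo2, the paralogous receptor, was at 15.7, 21.2, 25.0 and 12.5 in WT myoblasts and 71.7, 36.9, 57.6 and 45.6 in WT myotubes. In Fam134bKO it was at 0, 0, 0.87 and 1.67 in myoblasts, 3 reads in all, and at 1.94, 0, 8.10 and 7.99 in myotubes. Again the genotypes did not overlap at either stage, with -3.67 ± 0.57 in myoblasts (adjusted p = 7.46e-05) and -3.73 ± 0.57 in myotubes (adjusted p = 8.26e-05). By reads the ratio of WT to Fam134bKO in myoblasts was 28.8 (95% interval 9.50 to 143). The WT stages did not overlap either, but the differentiation estimate of 1.46 ± 0.57 was not called (adjusted p = 0.0712). None of the 4 genotype calls of Robo1 and Robo2 was lost in any alternative fit that held these genes. As Robo1 and Robo2 passed the filter through WT samples only, this is a description and no support. Both were absent from the fit at a minimum of 50. In bulk RNA, fewer cells that carry a transcript and less of it per cell cannot be told apart. Robo3 and Robo4, the commissural axon and endothelial members, held no read in any sample.

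**Figure D5:**
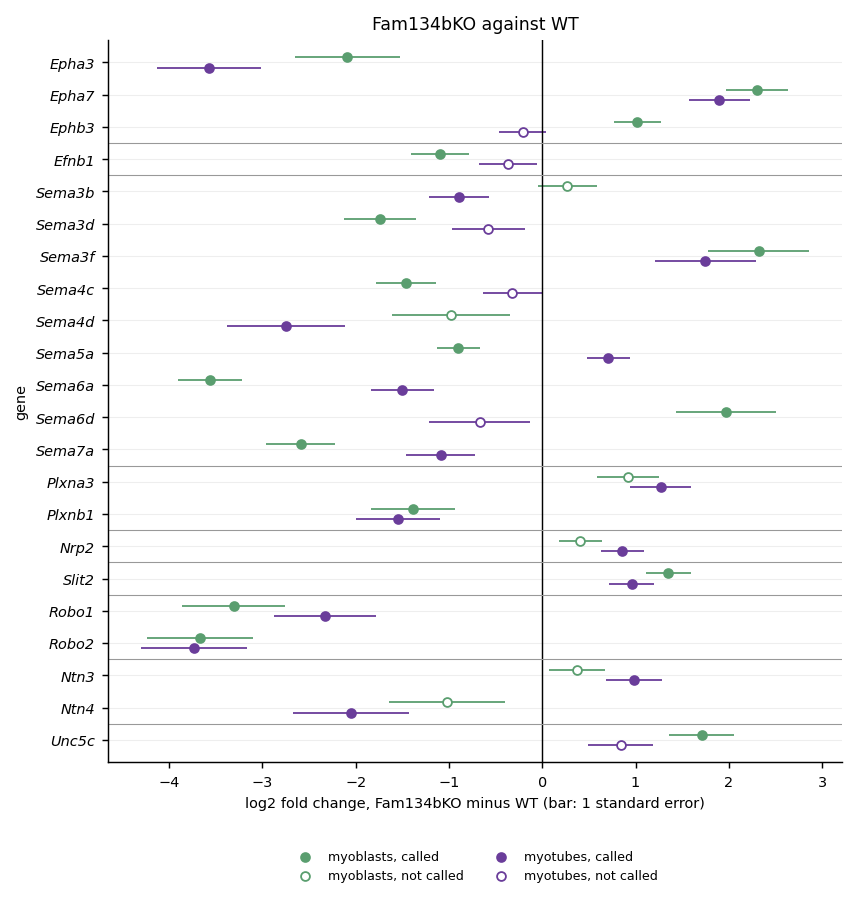
Log2 fold change of Fam134bKO over WT (points, bars of 1 standard error) in myoblasts (green) and myotubes (purple) for the guidance genes called at either stage, 4 samples per group. Filled points passed an adjusted p of 0.05 and open points did not. Robo1, Robo2, Epha3 and Sema6a are among the genes to the left at both stages. Epha7, Sema3f and Slit2 lie to the right at both, and Sema5a on opposite sides.

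All 4 netrins passed the filter. Ntn1, the founding ligand of Dcc and the Unc5 receptors, was at 21.2, 4.82, 19.01 and 6.24 in WT myoblasts, 32.8, 22.5, 26.0 and 24.8 in WT myotubes, 23.6, 11.6, 14.8 and 14.2 in Fam134bKO myoblasts and 82.3, 45.2, 31.5 and 52.0 in Fam134bKO myotubes. It rose in both genotypes without overlap, by 1.22 ± 0.40 in WT (adjusted p = 0.0332) and 1.62 ± 0.40 in Fam134bKO (adjusted p = 0.00388). The WT call was lost without WT myoblasts replicate 2 or 4 or WT myotubes replicate 1, 3 or 4 (0.89 to 1.25, adjusted p 0.0623 to 0.124). Ntn1 did not differ between genotypes at the threshold (0.50 ± 0.40 in myoblasts and 0.90 ± 0.40 in myotubes, adjusted p = 0.475 and 0.114).

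Ntn5 had the largest rise in WT, from 0.92, 0.96, 1.00 and 0 to 19.9, 17.99, 15.8 and 9.91 (3.31 ± 0.49, adjusted p = 5.23e-05). The WT myoblasts held 3 reads in all, so that the ratio of reads was 22.7 with a 95% interval of 7.46 to 113. In Fam134bKO it rose from 0, 0, 0.87 and 0.83 to 4.84, 10.2, 6.30 and 7.99 (2.57 ± 0.49, adjusted p = 3.75e-04, ratio of reads 16.2 with an interval of 4.01 to 142). Exons of Ntn5 share positions with Sec1 on the other strand, whose group means were 0.64 to 3.78. Ntn4, a netrin of basement membranes, was at 15.5, 8.996, 17.7 and 15.9 in WT myotubes and 9.68, 0, 4.50 and 1.998 in Fam134bKO myotubes (-2.05 ± 0.62, adjusted p = 0.0206). That call was lost without WT myotubes replicate 3 or 4 or Fam134bKO myotubes replicate 2 (-1.43 to -2.0, adjusted p 0.0532 to 0.0595). Without both Fam134bKO myotubes replicates 2 and 4 the estimate was -0.98 (adjusted p = 0.23). The call was also lost after quantile normalization and with only the samples compared (adjusted p 0.0525 and 0.0576). Ntn3 was higher in Fam134bKO myotubes, at 46.8 to 74.4, than in WT myotubes, at 19.8 to 44.6 (0.98 ± 0.30, adjusted p = 0.0218). The adjusted p was 0.0788 without WT myotubes replicate 2, 0.128 without Fam134bKO myotubes replicates 2 and 4 and 0.152 with sample weights. The exons of Ntn3 share positions with a second annotated gene of the same name that is not in the table.

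Of the Unc5 receptors, which mediate repulsion from netrin, Unc5b and Unc5c were tested. Unc5b was at 70.4 to 173.5 and 133 to 378 in WT myoblasts and myotubes and at 90.9 to 178 and 79.9 to 386 in Fam134bKO, with wide spread and no call in any comparison. Unc5c was at 24.9, 32.8, 10.0 and 15.2 in WT myoblasts, 76.0, 36.9, 52.0 and 46.6 in WT myotubes and 68.2, 56.4, 77.2 and 55.9 in Fam134bKO myoblasts. Its 124, 111, 118 and 44.0 in Fam134bKO myotubes overlapped the WT myotubes through replicate 4 alone. It rose in WT by 1.39 ± 0.35 (adjusted p = 0.00647) and was higher in Fam134bKO than in WT myoblasts by 1.71 ± 0.35 (adjusted p = 0.00122), both without overlap. Unc5a held no read in any sample, and Unc5d held 3.

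Other genes of these pathways were called in both directions. Of 75 further receptors, adaptors and cytoskeletal effectors, 61 were tested, of which 12 rose and 6 fell in WT and 16 rose and 7 fell in Fam134bKO with differentiation, with medians of 0.04 and 0.05. These are 19.7% and 9.84% in WT, beside 13.8% and 9.16% of all genes, and 26.2% and 11.5% in Fam134bKO, beside 17.3% and 16.1%. By genotype 6 were higher and 8 lower in Fam134bKO myoblasts (9.84% and 13.1%, beside 7.26% and 8.50%), and 5 were higher and 12 lower in Fam134bKO myotubes (8.20% and 19.7%, beside 9.74% and 13.7%). The difference between these genes and the guidance genes was not tested. Dcc, the canonical netrin receptor, held no read in any sample. Neo1, the gene of neogenin, was at 60.6 to 130 and 85.5 to 158 in WT and 64.7 to 101.5 and 117 to 292 in Fam134bKO, a rise of 1.10 ± 0.27 in Fam134bKO (adjusted p = 0.0035) and of 0.33 ± 0.27 in WT that was not called. Rgma, a membrane-anchored ligand of neogenin, rose by 1.57 ± 0.26 in WT and 2.19 ± 0.26 in Fam134bKO (adjusted p = 1.71e-04 and 1.40e-06). Flrt1, an adhesion protein that can bind Unc5 receptors, rose by 2.71 ± 0.52 and 2.42 ± 0.52 from myoblast means of 1.42 and 0.22 (adjusted p = 7.80e-04 and 0.00122). Srgap1, the Slit-Robo GTPase-activating protein, rose in WT by 1.95 ± 0.54 (adjusted p = 0.0129), and Dag1, the gene of dystroglycan, which binds Slits, rose in Fam134bKO by 2.37 ± 0.26 (adjusted p = 4.06e-07). Flrt1 reached 10 in myotubes only and Srgap1 in WT samples only. Both passed the filter through groups where they are high, so their p-values are a description. The largest falls in WT were Gipc1 (-1.62), Ngef (-0.91) and Rnd2 (-0.85), and in Fam134bKO Gipc1 (-1.44), Ptk2 (-1.03) and Limk1 (-0.95).

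Srgap1, Chn1 and Chn2 are named between the genotypes after their values were seen. They were picked from the lower side, whereas 6 of the 61 tested were called higher in Fam134bKO myoblasts and 8 lower. Srgap1 held no read in the Fam134bKO myoblasts and was at 2.67 to 10.2 in WT myoblasts, and it was at 0 to 1.94 in Fam134bKO myotubes against 17.1 to 28.5 in WT myotubes (-3.81 ± 0.54, adjusted p = 3.39e-05). As it passed the filter through WT samples only, that p is a description and no support. Chn1 and Chn2 encode the chimaerins, Rac inhibitors that act below Eph and plexin receptors. Chn1 was at 61.0 to 84.9 in WT myoblasts and 4.38 to 27.4 in Fam134bKO myoblasts (-2.49 ± 0.44, adjusted p = 3.17e-04), and Chn2 at 43.0 to 83.9 and 2.603 to 6.64 (-3.55 ± 0.40, adjusted p = 9.50e-07).

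Epha3, Robo1 and Robo2, which were chosen for their positions after their values were seen, lie on 1 chromosome. In mm10 (GRCm38, GENCODE M21 gene models) Epha3 spans chr16:63543534-63864175 on the minus strand, Robo1 chr16:72308306-73046095 on the plus strand and Robo2 chr16:73891839-74411825 on the minus strand. Robo1 and Robo2 are neighbours among the genes tested, 0.85 Mb apart. The tested gene next before Robo1, Gbe1 at 1.74 Mb, had a log2 fold change of -0.03 ± 0.22 in myoblasts and -0.27 ± 0.22 in myotubes, and the next after Robo2, Hspa13 at 1.33 Mb, had -0.46 ± 0.38 and 0.11 ± 0.38. Pros1, next before Epha3 at 0.61 Mb, had 0.56 ± 0.42 and 0.81 ± 0.42, and 4930453N24Rik, next after it at 0.89 Mb, had -0.68 ± 0.22 and -0.22 ± 0.22. Of these estimates that of 4930453N24Rik in myoblasts was called lower (adjusted p = 0.0412), and the others were not called. Over the 346 tested genes of the chromosome the median was 0.04 in myoblasts and -0.04 in myotubes. Ephb3, the other tested guidance gene of the chromosome, was higher in Fam134bKO myoblasts (1.02 ± 0.25, adjusted p = 0.00709).

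Among the 23 guidance genes that did not pass the filter, 5 held no read in any sample and 18 held at least 1. The most read of these was Epha1, with 82 reads over the 16 samples and at most 18 in a sample, and its exons share positions with the abundant Zyx on the other strand. At this depth a sample without a read allows up to 3 reads, so an absence of these transcripts cannot be told from levels under that floor.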

How the data were processed

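RNA from 16 samples was sequenced as single-end digital mRNA-seq. The authors trimmed the reads with bbduk, aligned them to mm10 with STAR 2.6.0a and counted them per gene with HTSeq, per the labels and the methods, and deposited log2(normalized count + 1). The normalization tool and the strand setting are not given in the sources used here. Groups came from the sample titles, whose replicates are called biological. Reads were recovered from the deposited values, which were 100% whole multiples of 1 read within 0.01, and served for depth, floors and counting intervals, which cover counting error only.

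The log2 values were fitted with limma 3.58.1 (R 4.3.3), with 4 group means over 16 samples, a mean-variance trend and Benjamini-Hochberg adjustment over 10767 genes at 10 or more in 4 samples. All adjusted p-values are two-sided and from this fit, which takes a spread shared by the groups for each gene. It was run on simulated counts with the same spread in every group. Replicates correlated at 0.879 to 0.95 in Fam134bKO myotubes and at 0.968 to 0.979 in WT myoblasts, and that run does not cover unequal spread. Tables were made with Python 3.11.15 and scipy 1.17.1. Members and lists were chosen with earlier results of these data known. By rule, values were given for up to 6 genes a direction called at an absolute log2 change of 1 or more, interaction calls, Nrp1, Nrp2, Robo1, Robo2, Unc5b, Ntn1, Plxnd1, Dcc and Neo1, and 3 pathway genes a direction. Other genes were named after their values were seen. Alternatives covered pseudocount, filter, scaling, replicate block, sample weights, samples fitted, threshold and left-out samples.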

Additional observations from a re-analysis of the deposited data

Results flagged for a closer look

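Sema5a and Sema6a responded differently to differentiation in the 2 genotypes by the interaction term of the limma fit, with log2 differences of 1.61 and 2.07 (Fam134bKO response minus WT response). Over 26 guidance genes and 104 groups of 4 samples, 7 single samples lay far from the other 3 of their group by Dixon's criterion, which chance meets in about 1 group in 20. In WT myotubes Nrp2 was highest in replicate 1, at 240.9 against 143 to 154.6. In WT myoblasts Plxnb1 was lowest in replicate 4, at 8.021 against 25.84 to 30.02. Sema3b and Unc5c were both lowest in Fam134bKO myotubes replicate 4, the shallowest sample, at 25.98 against 59.83 to 63.9 and at 43.96 against 110.9 to 123.9. The other 3 concern samples with 0 to 3 reads. Robo1 was at 2.603 in Fam134bKO myoblasts replicate 3 and at 0 in the others, Ntn5 was at 0 in WT myoblasts replicate 4 against 0.9227 to 1.001, and Sema3f was at 0 in WT myoblasts replicate 3 against 1.782 to 1.929.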

How the results depend on the processing

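Of 73 calls of named genes, followed over 27 alternatives, 0 reversed, 44 kept direction and call in every alternative that held them and 29 lost the call at least once. The tally includes calls of genes that passed the filter through the side where they are high, so for those it is a description. Not every call had a value in every alternative, and 1945 values were computed. Genes below a minimum of 50 were absent from that fit, and the interaction had no fit of only the samples compared. The number of guidance genes called moved by over 1.5 times as follows, and the cause was not tested except where fewer genes or a stricter threshold set it. With sample weights, WT differentiation gave 29 in place of 17, Fam134bKO against WT myoblasts 25 in place of 16 and the interaction 5 in place of 2. Fitting only the samples compared gave 26 for WT differentiation. At an adjusted p under 0.01 WT differentiation gave 10, Fam134bKO against WT myotubes 8 in place of 16 and the interaction 1. At a minimum of 50, which leaves 25 guidance genes, each genotype comparison gave 9, and the genes without overlap numbered 11 in place of 20 in WT differentiation, 7 in place of 14 between myoblasts and 9 in place of 14 between myotubes. Leaving out 1 sample gave 10 to 21 for WT differentiation, 17 to 25 for Fam134bKO differentiation, 14 to 18 and 12 to 16 between genotypes in myoblasts and myotubes, and 2 to 4 for the interaction.

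Without Fam134bKO myotubes replicates 2 and 4, an alternative chosen after seeing the data, the counts were 24, 23, 18, 11 and 3. Deviations of same-numbered samples from their group means correlated at a mean r of 0.033 (range -0.223 to 0.369), against -0.0108 for different numbers. The sources used here give no link between them beyond the number, and a shared preparation was not tested. With the replicate block the counts were 17, 24, 15, 16 and 2. Scaling alternatives moved the median of all genes by at most 0.081 in size. Depth limits genes near 3 reads, and a property of the 1 edited line cannot be told apart from genotype.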

Other observations

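The median log2 fold change of Fam134bKO over WT differed between chromosomes. In myoblasts it ran from -0.24 on chromosomes 5, 9 and 12 to 0.38 on chromosome 6, over 364 to 683 tested genes each, and in myotubes from -0.31 on chromosome 12 to 0.26 on chromosome 6. Chromosome 5 carries 6 tested guidance genes, chromosome 9 carries 4 and chromosome 6 carries 3, while chromosome 12 carries 0. These medians are given as values, and their part in the guidance gene results was not tested.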
